A study of Mus musculus with 15 samples.

Results

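The response of *Tert* knockout (KO) mouse colon to dextran sulfate sodium (DSS) was measured as KO libraries taken after DSS against untreated KO libraries. The comparison holds 5 of the 15 libraries of the series, chosen by their KO label, with 3 in the DSS group and 2 in the untreated group. It was read across the 17477 genes that passed an expression filter. *Tert* encodes the reverse transcriptase that lets telomerase add repeats to chromosome ends. The KO mice carry the genotype TERT-/-. The other mice of the series carry TERT+/+ (WT) or a knock-in allele that makes a catalytically dead enzyme (VAA). Each of these 2 genotypes has 2 untreated and 3 DSS libraries. They are used to test whether the KO response differed from theirs. They also enter the fit, which filters genes and estimates the spread over all 15 libraries, so the calls in KO depend on them too. Mice were 8 to 12 weeks old, DSS was given at 3% in drinking water for 4 days, the mice then drank water without DSS for 4 days, and colon RNA was taken on day 8. The labels do not state how the null allele was made, how many generations the line had lived without telomerase, or whether each library is 1 animal. *P* values therefore measure the spread between these libraries, which may be technical.

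DSS is a sulfated polysaccharide that strips and injures the colonic epithelium, so that luminal bacteria reach the mucosa. Neutrophils and monocytes enter first, T cells release interferon gamma, and interferon gamma switches on the genes of antigen presentation in epithelium and leukocytes alike. Surviving epithelial cells spread over the wound in a repair state before crypts and their absorptive and goblet cells are rebuilt.

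The targeted gene was checked first. *Tert* held 1 and 1 counts in the untreated KO libraries and 0, 0 and 1 in the DSS KO libraries, against 7 to 40 in the 10 libraries of the other genotypes. A count of 0 allows up to 3 counts, so no response of *Tert* itself could be read at this depth. KO totals ran from 13.91 to 15.25 M counts, and the chi-square per degree of freedom between KO replicates ran from 10.9 to 19.1, well above counting error. Mitochondrial genes took 2.89 to 3.93% of KO counts, and 3 gene models with identical counts took 4.45 to 9.65%. Levels below are CPM, counts scaled to a common library size of 1 M after trimmed mean scaling, and they compare libraries, not genes. Defining genes of colonic epithelium were high in all 5 KO libraries. *Epcam* stood at 961 and 1240 CPM untreated and 1370, 1190 and 1270 CPM after DSS, and *Muc2*, the secreted mucin of goblet cells, at 6000 and 6150 against 4810, 5180 and 6010 CPM.

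Sex differed between libraries. The second untreated KO library held 868 counts of the Y-linked gene *Ddx3y*, against 5 to 17 in the other 4 KO libraries, so the untreated KO group holds 1 library of each sex while the DSS group is all female. The second untreated WT library, with 914 counts, was the other male library among the 15. Of 4 Y-linked genes 3 were called lower after DSS on the strength of that library, *Ddx3y* among them with a log2 fold change of -5.06 ± 1.41. The call of *Ddx3y* ended without that library, without any 1 DSS library of KO or WT, and without either untreated VAA library. The second untreated KO library also held more B cell transcript than the first untreated library, with a sum of 151 against 43.2 CPM over 18 B cell genes, and the DSS libraries held 408, 61.3 and 129 CPM. The B cell sums of the groups overlapped. The part of sex in the results was not tested beyond the fits with sex as a term and without both male libraries. Their values stand beside each list count that they moved by over 1.5 times.

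After DSS 977 genes rose and 885 fell in KO colon, 5.59% and 5.06% of the genes tested (edgeR quasi-likelihood test, Benjamini-Hochberg adjusted *P* under 0.05). Of the genes that rose 499 rose over 2-fold, 197 over 4-fold and 45 over 16-fold, and of those that fell 538, 156 and 17 did so. The median log2 fold change over all genes tested was 0.003. With limma on the authors' deposited log2 CPM, which carry no trimmed mean scaling, that median was -0.13 and the split moved to 700 higher and 1547 lower. The count rests on few libraries. It was 403 without the first untreated KO library, 703 without the second, and 1040, 850 and 1024 without each DSS library in turn. It rose to 3750 without the third VAA DSS library, which has the lowest total of the 15, 10.56 M. With sex as a term 1187 genes were called, and without both male libraries, a choice made after seeing the data, 538. Where leaving out 1 library ended the call of a gene named below in the KO response, that library is given. For the differences between genotypes, the numbers of genes called with 1 library left out are given with that test. The other calls of named genes in the KO response held in each of the 15 fits without 1 library. For lists described below with members called in 1 direction and 0 in the other, leaving out 1 library gave at most 3 in that other direction.

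**Figure D1:**
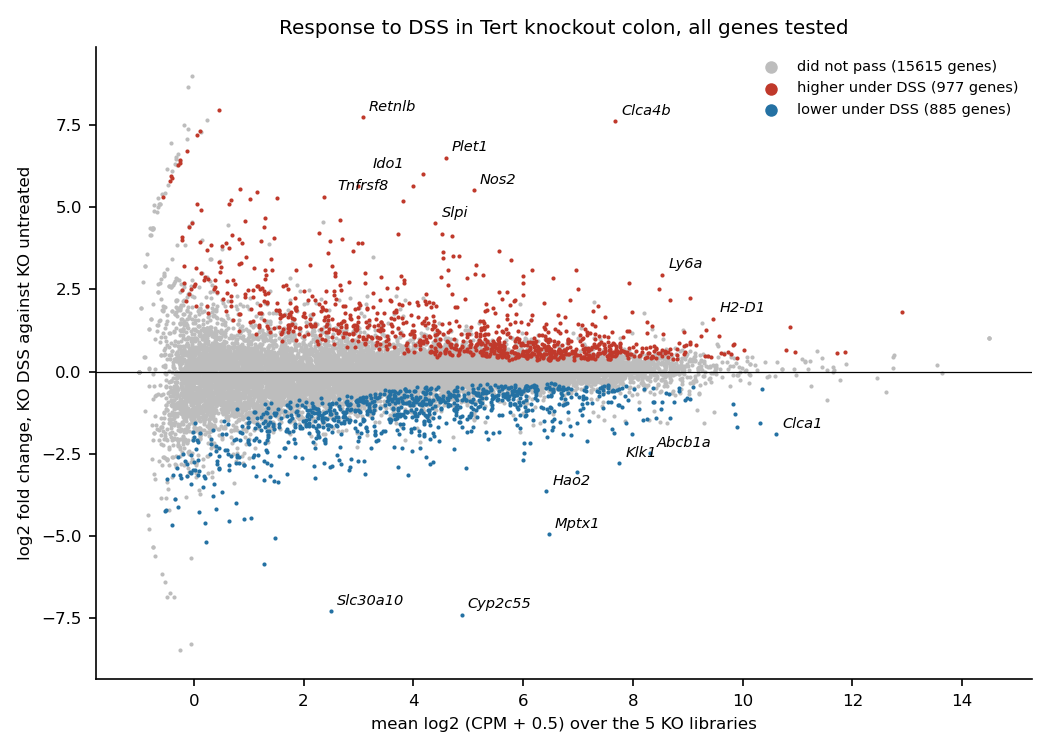
Each point is 1 of 17477 genes in Tert knockout colon, with the mean log2 level over 5 libraries on the x axis and the log2 fold change of DSS (n = 3) against untreated (n = 2) on the y axis. The 977 red and 885 blue genes passed the test, and Clca4b lies at 7.62 and Cyp2c55 at -7.39.

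Several genes that rose most in KO colon are made by epithelium. *Clca4b*, of a family of secreted calcium-activated chloride channel regulators made by surface epithelium, went from 7.63 and 9.27 CPM untreated to 1940, 1610 and 1450 CPM after DSS, a log2 fold change of 7.62 ± 0.32 (SE; edgeR adjusted *P* = 3.9e-08, the smallest of all genes). *Retnlb*, which encodes the antibacterial goblet cell protein RELMβ, was near absent at 0.323 and 0.0713 CPM and reached 37.2, 40.6 and 59.2 CPM. Its log2 fold change was 7.75 ± 0.65. *Plet1*, a surface protein of epithelial progenitors and of repairing epithelium, went from 1.55 and 1.43 CPM to 213, 93.4 and 103 CPM. In each of these genes the lowest DSS library lay above the highest untreated library many times over. *Clca3b* of the same family as *Clca4b* was already present, at 180 and 232 CPM, and rose to 1010, 974 and 960 CPM (log2 fold change 2.25 ± 0.18). *Tnfrsf8*, encoding the TNF receptor CD30, went from 1.16 and 1.5 to 60.1, 74.2 and 67.2 CPM (log2 fold change 5.65 ± 0.46). Others among the smallest *P* values were *Ddah1*, an enzyme that degrades inhibitors of nitric oxide synthase, which rose by 2.93 ± 0.23 on the log2 scale, *Dhrs9*, a retinol dehydrogenase, by 2.84 ± 0.23, and *Cwh43* by 2.99 ± 0.24.

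Genes of the wound-repair state rose in part. Of 27 tested members of a list of regenerative, fetal-like epithelium 10 rose and 1 fell, with a median log2 fold change of 0.35. *Ly6a*, a stem cell antigen that marks fetal-like colonic epithelium and also lymphocytes, rose from 75.4 and 147 to 1050, 754 and 773 CPM. *Ly6c1* of the same family, which lymphocytes also carry, rose from 8.66 and 11.8 to 160, 117 and 110 CPM. *Sprr1a*, a cornified envelope protein switched on in injured epithelium, went from 1.68 and 1.43 to 10.5, 13.4 and 11.5 CPM. Their log2 fold changes were 2.95 ± 0.29, 3.66 ± 0.3 and 2.92 ± 0.31. Other members did not pass. *Anxa3* had 119 and 191 against 218, 188 and 185 CPM (log2 fold change 0.35 ± 0.18, edgeR adjusted *P* = 0.25), and the growth factor gene *Hbegf* 23.9 and 18.6 against 30.1, 28.7 and 21.8 CPM (0.34 ± 0.32, edgeR adjusted *P* = 0.54). Without the first untreated library 6 members rose. The 1 member that fell, *Ecm1*, lost its call without any 1 of the KO libraries, either untreated WT or VAA library, or the first or second WT DSS library. The number that fell was 2 without the first or second VAA DSS library and 3 without the third, and 0 with sex as a term or without both male libraries.

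Differentiated surface colonocytes were represented by gains and losses side by side. Of 17 brush border genes 5 rose and 3 fell. *Krt20*, a keratin of mature surface cells, went from 403 and 371 to 1140, 851 and 789 CPM (log2 fold change 1.26 ± 0.28), and *Myo1a*, the motor of the microvillus core, from 378 and 435 to 732, 684 and 745 CPM (0.82 ± 0.13). *Mep1a*, a microvillus metalloprotease, fell from 225 and 309 to 88.7, 53.8 and 66.9 CPM (-1.94 ± 0.32). *Krt20* lost its call without either untreated library. The number that rose was 1 and 2 without the first and the second untreated library and 3 without the first or the third DSS library, and it was 3 without any 1 untreated WT or VAA library. The number that fell was 1 without either untreated library or the second DSS library. Brush border genes that rose and fell numbered 3 and 1 with sex as a term and 2 and 1 without both male libraries. Of 23 junction genes 5 rose and 0 fell, with a median log2 fold change of -0.03. *Cldn7*, a claudin of the lateral membrane, stood at 356 and 377 CPM untreated and 535, 507 and 498 CPM after DSS (0.49 ± 0.11), and lost its call without either untreated library or the first DSS library. *Cdh1*, encoding E-cadherin, did not pass, at 1310 and 1720 against 1440, 1350 and 1360 CPM. The 5 junction genes became 1 without either untreated library and 2 or 3 without a DSS library, 2 with sex as a term and 1 without both male libraries.

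Of 24 epithelial defence genes that interleukin-22 and STAT3 induce 11 rose, 0 fell and 13 did not pass, with a median log2 fold change of 1.13. *Nos2*, the inducible nitric oxide synthase of epithelium and macrophages, went from 2.71 and 3.92 to 129, 131 and 196 CPM (log2 fold change 5.52 ± 0.49). *Lrg1*, a secreted acute phase glycoprotein, rose from 2.13 and 0.999 to 28.4, 94.4 and 50.6 CPM. The hydrogen peroxide-producing oxidase *Duox2* rose from 132 and 118 to 793, 620 and 740 CPM, and its maturation factor *Duoxa2* from 10.3 and 9.56 to 94.9, 60.7 and 78.5 CPM. All 4 separated the groups without overlap, as did 24.1% of all genes tested in this direction. *Stat3* itself, at 148 and 180 against 176, 174 and 201 CPM, did not pass (0.16 ± 0.2, edgeR adjusted *P* = 0.65). Without either untreated library 7 members rose, as did 7 without both male libraries.

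Of 25 tested genes of secreted antimicrobial proteins 8 rose and 2 fell. *Slpi*, a leukocyte protease inhibitor of mucosal surfaces, went from 2.46 and 3.71 to 89.3, 66.2 and 55.1 CPM, and *Ltf*, encoding iron-binding lactoferrin, from 0.0646 and 0.285 to 6.67, 7.84 and 6.46 CPM. *Wfdc2*, a goblet cell product, fell from 137 and 141 to 66, 60.2 and 61.4 CPM (log2 fold change -1.15 ± 0.17). Much of the antimicrobial output did not pass the test: *Lypd8*, which keeps flagellated bacteria off the epithelium, stood at 4630 and 6830 against 9830, 6790 and 7670 CPM, and *Pigr*, the transporter of secretory IgA, at 2790 and 3640 against 3260, 2790 and 3880 CPM. The untreated and DSS libraries overlapped for both genes. The number that fell was 1 without any 1 KO library, 1 with sex as a term and 1 without both male libraries.

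**Figure D2:**
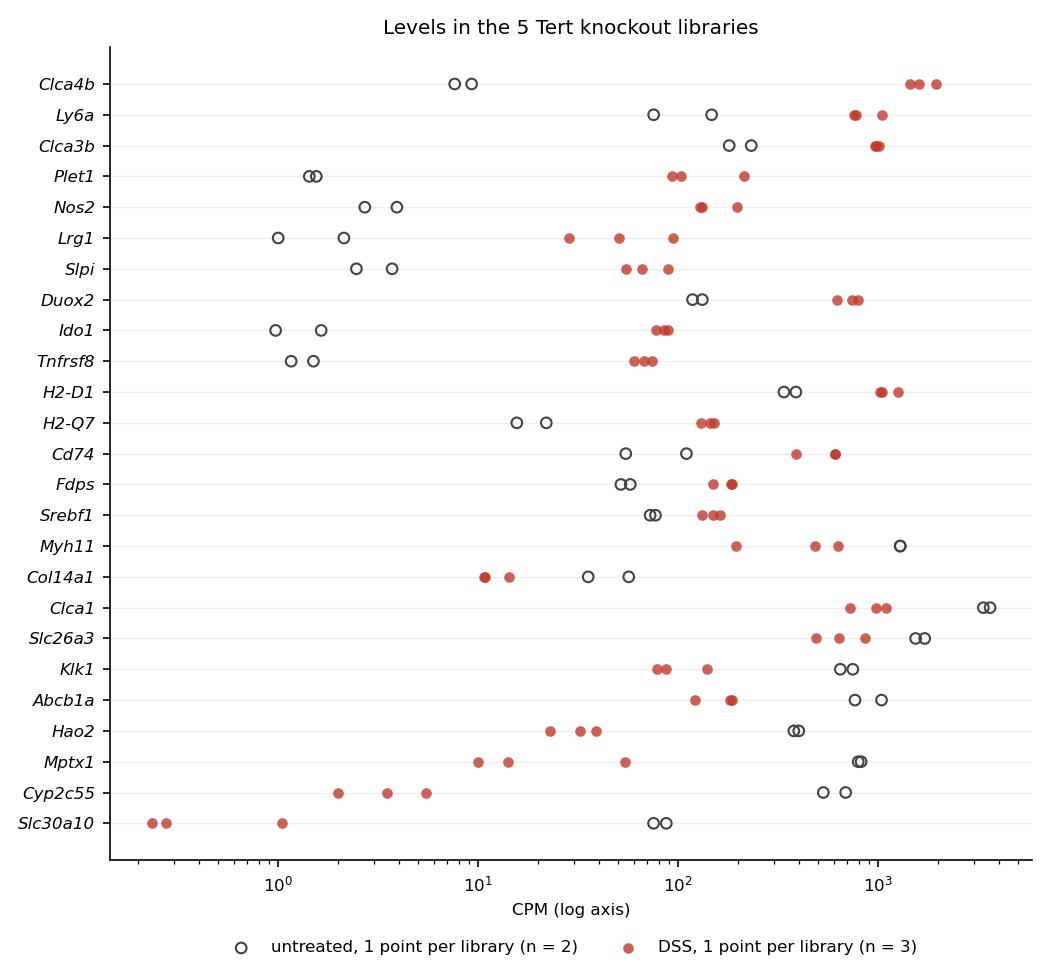
Each row is a gene and each point 1 Tert knockout library, placed by its CPM on a log axis, with open points for the 2 untreated and filled points for the 3 DSS libraries. The groups separate in every row, from Clca4b, at 7.63 and 9.27 against 1450 to 1940 CPM, down to Slc30a10, at 75.3 and 87.2 against 0.233 to 1.04 CPM. Genes named by largest fold or smallest P had to separate in this way to be named. Of all genes tested 24.1% separated upward and 24% downward.

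Of 26 tested genes of MHC class I and peptide loading 20 rose and 0 fell, with a median log2 fold change of 1.47, against 5.59% of all genes tested. Class I molecules display peptides that the immunoproteasome cuts and that the TAP transporter moves into the endoplasmic reticulum, and the genes of each step rose. *H2-D1*, a classical heavy chain, went from 338 and 388 to 1260, 1020 and 1050 CPM (log2 fold change 1.61 ± 0.15). *H2-Q7* and *H2-Q6*, nonclassical heavy chains, went from 21.9 and 15.6 to 151, 144 and 130 CPM and from 4.52 and 7.49 to 81.2, 64.2 and 59.7 CPM. *B2m*, the light chain that all of them share, rose from 130 and 203 to 863, 658 and 740 CPM (2.18 ± 0.25), and *Psmb8*, a catalytic subunit of the immunoproteasome, from 11.7 and 23.3 to 98.7, 85.1 and 94.6 CPM (2.41 ± 0.34). The H2 heavy chain genes are near-identical copies, so how their reads were shared out among them is uncertain, and the same holds for the Ly6, Clca and Gbp families. The members that did not pass included *Tapbp*, the tapasin that bridges class I and TAP, at 168 and 210 against 287, 256 and 277 CPM (edgeR adjusted *P* = 0.057). Without the first untreated library 12 members rose, and with each other library left out between 16 and 23 did.

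Interferon-responsive genes are known to carry short promoter elements, and the 250 bases before the start of each called member were searched in the RefSeq promoter table of GRCm38.p6, on both strands, for GAAA, any 2 bases and GAAA again, the core of the interferon-stimulated response element, and TTCNNNGAA, the gamma activated site, whose letters read alike on both strands. In the promoters shown no match overlaps another. The table holds 32851 promoters, of which 2.98% hold the first motif, 7.02% the second and 0.332% both. It gave a promoter for 15 of the 20 called class I members. The first motif was found in 3 of them and the second in 1. These 4 promoters are shown whole, with the match in capitals.
B2m, chr2:122147437-122147686, plus strand: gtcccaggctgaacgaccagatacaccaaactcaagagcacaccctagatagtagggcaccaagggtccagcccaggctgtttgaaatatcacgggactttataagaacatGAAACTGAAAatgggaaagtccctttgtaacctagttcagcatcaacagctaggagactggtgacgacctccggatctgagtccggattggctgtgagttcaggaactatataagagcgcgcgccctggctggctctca
Psmb8, chr17:34197945-34198194, plus strand: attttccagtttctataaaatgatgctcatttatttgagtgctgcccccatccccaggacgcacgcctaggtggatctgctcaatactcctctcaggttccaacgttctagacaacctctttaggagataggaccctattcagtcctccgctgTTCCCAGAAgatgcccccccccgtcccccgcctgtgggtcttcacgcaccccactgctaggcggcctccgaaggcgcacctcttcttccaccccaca
H2-T23, chr17:36032702-36032951, minus strand: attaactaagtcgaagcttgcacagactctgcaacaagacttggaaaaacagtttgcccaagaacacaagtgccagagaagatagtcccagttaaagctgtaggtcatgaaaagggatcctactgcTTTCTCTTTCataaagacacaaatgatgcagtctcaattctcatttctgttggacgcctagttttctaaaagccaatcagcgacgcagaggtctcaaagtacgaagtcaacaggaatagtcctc
H2-T22, chr17:36042743-36042992, minus strand: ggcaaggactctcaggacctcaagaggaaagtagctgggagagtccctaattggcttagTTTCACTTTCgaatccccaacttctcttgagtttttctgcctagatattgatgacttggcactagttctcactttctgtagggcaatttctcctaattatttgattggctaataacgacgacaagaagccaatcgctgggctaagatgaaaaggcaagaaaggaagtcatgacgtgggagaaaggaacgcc
In *B2m* the match begins 139 bases before the start, in *Psmb8* 97, in *H2-T23* 124 and in *H2-T22* 191. *H2-T22* rose from 35 and 45.8 to 94.3, 66 and 80.7 CPM, and *H2-T23* from 74.9 and 93.3 to 149, 114 and 123 CPM (log2 fold changes 0.99 ± 0.17 and 0.62 ± 0.18). *H2-T22* lost its call without the first untreated library. *H2-T23* lost its call without any 1 KO library, any 1 untreated WT or VAA library, the third WT DSS library or the first VAA DSS library. A match is a description of these letters and not a measured site.

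Of 31 interferon-inducible GTPases and their companions 16 rose, 0 fell and 15 did not pass, with a median log2 fold change of 2.03 (1.99 with a floor of 3 counts for members near 0 in the untreated group). These proteins attack the vacuoles of intracellular microbes. *Ido1*, which degrades tryptophan and is among the most interferon-responsive genes of the gut, went from 0.97 and 1.64 to 88.6, 85.4 and 77.5 CPM (log2 fold change 6.01 ± 0.57). *Gbp2*, a guanylate binding protein, went from 14.1 and 25.8 to 156, 181 and 176 CPM (3.1 ± 0.66). The receptor chains *Ifngr1*, at 197 and 269 against 304, 249 and 251 CPM, and *Ifngr2*, at 124 and 140 against 180, 142 and 172 CPM, did not pass. *Ifng* itself, looked up after the other values were seen, was counted 0 and 0 times untreated and 1, 5 and 6 times after DSS. Against a floor of 3 counts over the untreated group its fold was 2.88. The lower end of the 95% counting interval of its ratio was 2. The count of 16 fell to 1 without the first untreated library, 2 without the second and 7, 9 and 7 without each DSS library, and it was 9 with sex as a term and 2 without both male libraries. *Gbp2* lost its call without either untreated library.

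Among the 16 called members of that list 9 had a promoter in the table, of which 7 held the first motif, 5 the second and 4 both. The list was searched after its values were seen, and the 4 are the p47 GTPases *Tgtp1*, *Tgtp2*, *Igtp* and *Irgm2*, which lie on chromosome 11. The stretch with both motifs is shown for comparison, TTCNNNGAA first and the paired GAAA second, in capitals.
Tgtp1, chr11:48992299-48992349, minus strand: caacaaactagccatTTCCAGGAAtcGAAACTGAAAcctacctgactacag
Tgtp2, chr11:49064258-49064308, minus strand: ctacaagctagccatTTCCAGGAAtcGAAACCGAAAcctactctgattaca
Igtp, chr11:58199496-58199546, plus strand: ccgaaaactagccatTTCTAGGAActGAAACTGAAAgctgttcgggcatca
Irgm2, chr11:58214887-58214937, plus strand: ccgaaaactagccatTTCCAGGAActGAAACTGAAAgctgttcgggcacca
The 4 stretches are alike well beyond the motifs, as in a family made by duplication, so they are not 4 separate observations. *Igtp* rose from 6.53 and 6.99 to 72.4, 40.8 and 60.5 CPM and *Irgm2* from 17.6 and 21.9 to 121, 59.1 and 95.8 CPM (log2 fold changes 3.1 ± 0.81 and 2.22 ± 0.57). *Tgtp1* rose from 0.84 and 0.357 to 33.3, 21.1 and 37.7 CPM, and its near copy *Tgtp2* from 1.49 and 3.99 to 14.1, 15.5 and 23.6 CPM, and reads may have been split between them. *Tgtp1* lost its call without either untreated library. *Igtp* and *Irgm2* lost theirs without either untreated library or without the first or the third DSS library. *Tgtp2* lost its call without any 1 KO library, any 1 untreated WT or VAA library, the second WT DSS library or the first VAA DSS library.

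Of 41 type I interferon stimulated genes 21 rose and 0 fell, with a median log2 fold change of 1.45. *Zbp1*, a sensor of left-handed nucleic acid that can start cell death, went from 6.14 and 12.2 to 107, 69.9 and 85.2 CPM, and *Ifitm3*, a membrane protein that blocks virus entry, from 14.6 and 23.3 to 42.3, 46.8 and 56.8 CPM (log2 fold changes 3.25 ± 0.59 and 1.36 ± 0.27). Both lost their calls without the first untreated library. *Irf7*, the factor that amplifies type I interferon, did not pass, with 38.2 and 41.7 against 140, 64.8 and 67.5 CPM (edgeR adjusted *P* = 0.078). The count of 21 became 0 without the first untreated library, 3 without the second, and 8 and 12 without the first and second DSS library. It was 33 and 35 without the second and the third VAA DSS library, 7 with sex as a term and 2 without both male libraries.

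MHC class II, which presents peptides to CD4 T cells, followed, with 7 of 11 members higher and 0 lower. *Cd74*, the invariant chain, went from 54.7 and 110 to 607, 388 and 606 CPM (log2 fold change 2.7 ± 0.42), and *H2-Ab1*, a class II beta chain, from 16.9 and 32.5 to 133, 95.6 and 140 CPM. The untreated and DSS libraries did not overlap for either gene, as for 24.1% of all genes tested in this direction. Members that did not pass included *H2-Ob*, at 0.711 and 6.78 against 21.9, 2.73 and 6.31 CPM, whose product acts chiefly in B cells. The summed B cell transcripts given above, like *H2-Ob*, were lowest in the first untreated library and highest in the first DSS library. Of 18 B cell genes 0 passed. In the second DSS library the B cell sum was 61.3 CPM, below the 151 CPM of the second untreated library. *Cd74* and *H2-Ab1* were higher in that DSS library than in either untreated library. The part of B cells in the class II result was not tested. In bulk tissue more cells of a type and more RNA per cell cannot be told apart. *H2-Ab1* lost its call without the first untreated library, where 1 member of the list rose, against 3 without the first or the third DSS library and 4 without the first or second WT DSS library.

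**Figure D3:**
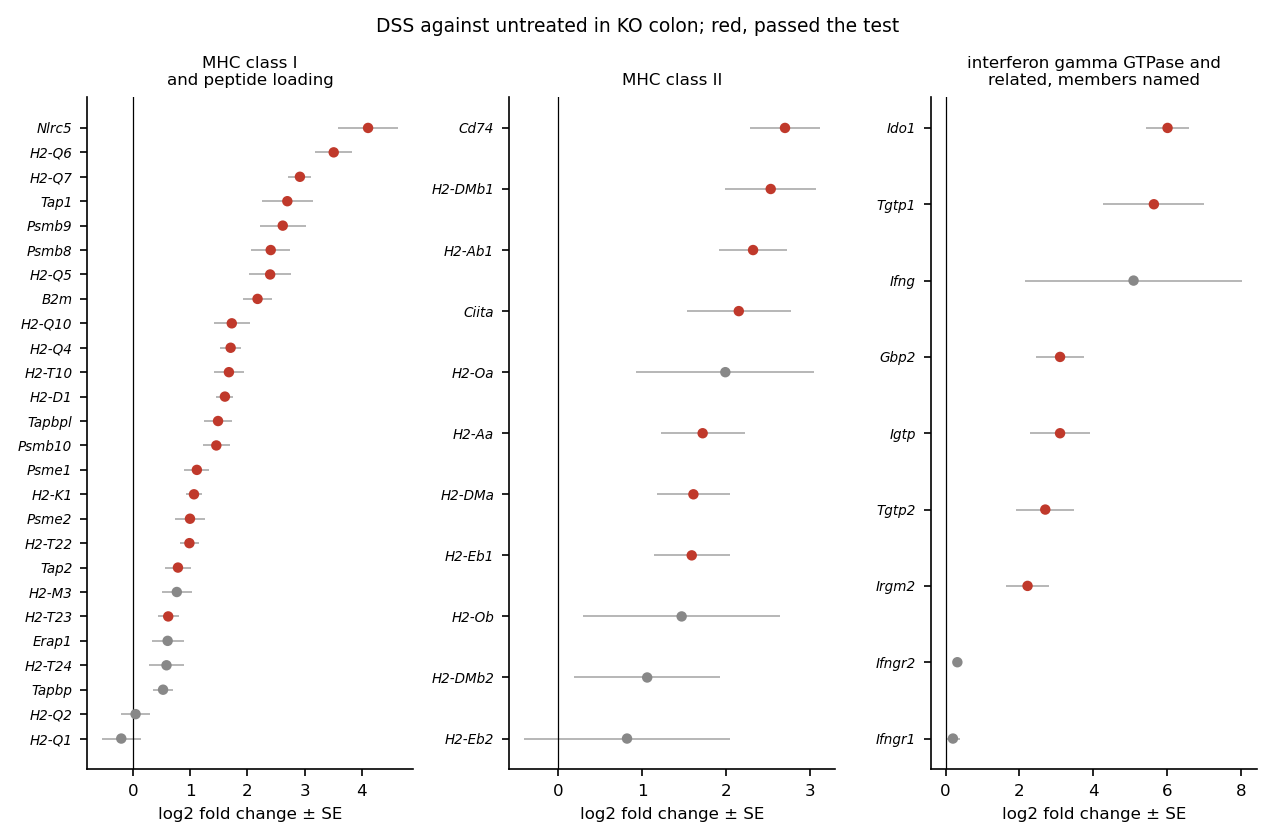
Points are the log2 fold changes of DSS (n = 3) against untreated (n = 2) in Tert knockout colon for all tested members of the class I and class II lists and for the members of the interferon gamma list that the text names, with standard errors as bars. Red points passed the test and grey points did not, and of the class I and class II members 20 of 26 and 7 of 11 are red.

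Of 35 tested genes of T cells, NK cells and innate lymphoid cells 20 rose and 0 fell, with a median log2 fold change of 2.17. *Gzma* and *Gzmb* encode granzymes, the proteases that cytotoxic cells inject into targets, and *Nkg7* a protein of their granules. *Gzma* was counted 2 times in the untreated libraries together and 146 times in the DSS libraries, a ratio of 52.5 per library size with a 95% counting interval of 14.3 to 437. For *Gzmb* the counts were 3 and 200 (ratio 47.9, interval 16.2 to 234), and for *Nkg7* they were 2 and 107 (38.5, 10.4 to 322). In all 3 genes the counts were high in each DSS library, as in *Gzmb* with 4.88, 4.91 and 4.83 CPM. *Cd8b1*, a chain of the CD8 coreceptor, went from 0.129 and 0.214 to 3.8, 1.84 and 1.56 CPM. *Cd3d*, of the T cell receptor complex, did not pass, with 5.37 and 3.92 against 6.51, 6.34 and 6.69 CPM, nor did *Itgae*, an integrin of lymphocytes within the epithelium, with 7.37 and 5.21 against 9.46, 11 and 9.81 CPM. *Cd8b1* lost its call without the first untreated library. The count of 20 was 5 and 12 without the first and second untreated library, 12, 11 and 12 without each DSS library, and 12 without both male libraries.

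**Figure D4:**
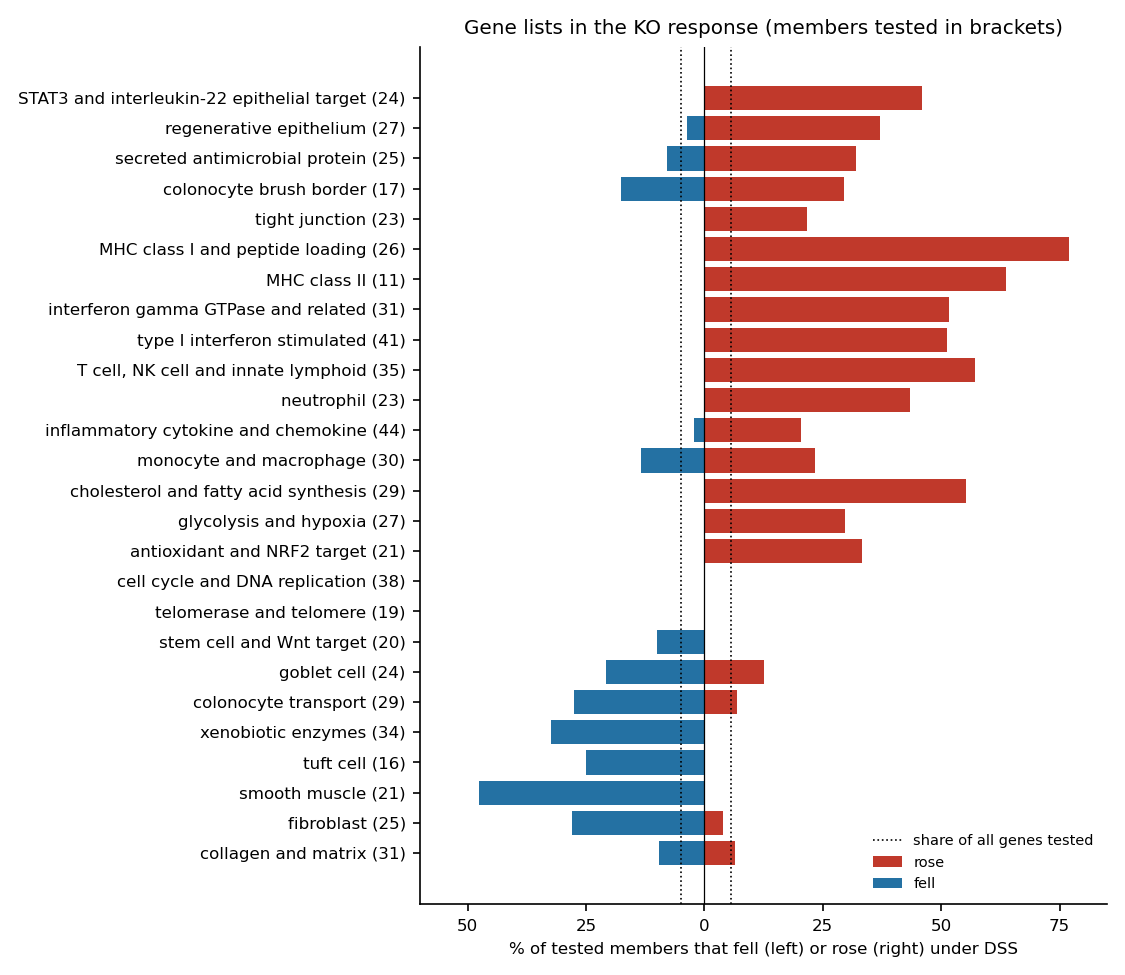
Each row is a gene list, with bars for the percent of its tested members that rose (red, right) or fell (blue, left) after DSS in Tert knockout colon. Dotted lines mark the 5.59% and 5.06% of all genes tested, and class I antigen presentation, with 20 of 26 higher, and smooth muscle, with 10 of 21 lower, reach far past them.

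Of 34 enzymes and pumps that handle foreign compounds 11 fell and 0 rose, with a median log2 fold change of -0.56. *Cyp2c55*, a cytochrome P450 abundant in mouse colon, went from 688 and 532 to 5.5, 1.98 and 3.49 CPM, a log2 fold change of -7.39 ± 0.88. *Abcb1a*, the P-glycoprotein efflux pump, went from 766 and 1040 to 186, 122 and 181 CPM, and *Ces2a*, a carboxylesterase, from 99 and 92.4 to 22.8, 18.8 and 28.4 CPM. The DSS libraries were low in each of the 3 genes, without overlap, as for 24% of all genes tested in this direction. *Gstp1*, a glutathione transferase, did not pass, at 102 and 134 against 171, 142 and 161 CPM. The same direction was seen in the metal exporter *Slc30a10*, which clears manganese, from 87.2 and 75.3 to 0.233, 0.273 and 1.04 CPM (log2 fold change -7.28 ± 0.44), the smallest *P* among genes that fell. *Mptx1*, a mucosal pentraxin, went from 822 and 795 to 9.92, 14.1 and 54.4 CPM. *Hao2*, a peroxisomal hydroxyacid oxidase, went from 379 and 401 to 32.2, 22.8 and 38.7 CPM. Without either untreated library 7 members of the xenobiotic list fell, and 5 did without both male libraries. With sex as a term 1 member rose.

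Of 29 transport genes of colonocytes 8 fell and 2 rose, with a median log2 fold change of -0.09. Those numbers were 5 and 1 with sex as a term and 4 and 1 without both male libraries. *Slc26a3*, the chloride and bicarbonate exchanger of the surface, fell from 1540 and 1710 to 858, 489 and 640 CPM (log2 fold change -1.3 ± 0.23), and *Car4*, a membrane carbonic anhydrase, from 697 and 819 to 381, 191 and 281 CPM. *Slc51b*, a subunit of the basolateral bile acid exporter, rose from 3.17 and 3.35 to 11.3, 15.2 and 13.6 CPM (2.03 ± 0.25). The sodium pump chain *Atp1b1* did not pass, with 1310 and 1490 against 1700, 1660 and 1770 CPM. Members that fell numbered 3 without the first untreated library and 4 without the second or the third DSS library, and the number that rose was 1 without either untreated library or without the second or the third DSS library. Of 30 genes of fatty acid oxidation and ketogenesis 2 fell, near the 5.06% of all genes tested that fell. The count that fell was 0 without the first untreated library, and it was 1 without the second untreated or the second or the third DSS library and 6 without the third VAA DSS library. It was 1 with sex as a term and 1 without both male libraries.

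Goblet cell genes moved both ways, with 3 of 24 higher and 5 lower. *Clca1*, a protease of the mucus layer, fell from 3630 and 3360 to 975, 727 and 1090 CPM (log2 fold change -1.91 ± 0.35), and *Klk1*, a secreted kallikrein, from 747 and 647 to 78.2, 86.9 and 139 CPM. *Galnt12*, which adds the first sugar to mucins, rose from 43.6 and 39.4 to 74.6, 80.5 and 78.4 CPM (0.91 ± 0.14). The mucins' main partner *Fcgbp* and the trefoil peptide *Tff3* did not pass, at 8030 and 8110 against 5190, 4740 and 5920 CPM and 397 and 497 against 321, 307 and 433 CPM. Fewer goblet cells and less RNA of some products per cell cannot be told apart here. Those that fell numbered 3 without either untreated library or without the first DSS library, 3 with sex as a term and 3 without both male libraries. Tuft cells, the chemosensory cells of the epithelium, showed 4 of 16 genes lower and 0 higher. The channel *Trpm5* went from 5.75 and 4.49 to 0.775, 1.23 and 0.891 CPM and *Sh2d7* from 3.17 and 2.07 to 0.233, 0 and 0.0743 CPM. The tuft count was 2 without the first untreated library and 9 without the third VAA DSS library. Of 20 stem cell and Wnt target genes 2 fell, against 5.06% of all genes tested. *Znrf3*, which removes Wnt receptors, was among them at 42 and 41.7 against 19.5, 22.9 and 27.1 CPM. The other 18 did not pass, and the median of the list was -0.28. Among these 18 were *Lgr4*, *Lrig1* and *Ephb2*, with log2 fold changes of -0.21, 0.06 and 0.08. The stem cell count was 1 without the first untreated library and 1 without both male libraries, and 5 and 8 without the second and the third VAA DSS library.

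Of 12 plasma cell genes 3 fell and 1 rose, with a median log2 fold change of 0.22. *Jchain*, which joins IgA into dimers for transport, went from 144 and 180 to 25, 42.1 and 40.9 CPM (log2 fold change -2.17 ± 0.3). The 1 that rose, *Prdm1*, encodes a factor shared by plasma cells, T cells and epithelium and went from 3.56 and 5.28 to 33.2, 23.9 and 29.3 CPM. *Xbp1* did not pass, at 143 and 144 against 147, 158 and 196 CPM. The number that fell was 1 without either untreated library and 1 without both male libraries.

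All 21 tested smooth muscle genes had every DSS library below both untreated libraries, and 10 of them passed the test, with a median log2 fold change of -1.43. For comparison 24% of all genes tested had every DSS library below both untreated ones. Summed smooth muscle levels were 5720 and 6300 CPM untreated and 2570, 1190 and 3040 CPM after DSS, and the second DSS library was the lowest. *Casq2*, a calcium store protein, went from 9.63 and 14.1 to 4.26, 3.41 and 5.5 CPM (log2 fold change -1.43 ± 0.3) and lost its call without the second untreated library. *Myh11*, the smooth muscle myosin heavy chain, did not pass, at 1290 and 1290 against 481, 195 and 630 CPM (edgeR adjusted *P* = 0.064). How much muscle each piece of colon held is not in the labels, and its part in these values cannot be told apart from the treatment. The count of 10 was 1 and 0 without the first and second untreated library, 1 without the first or second DSS library, 3 without either untreated WT library, 4 without either untreated VAA library, 5 without any 1 WT DSS library and 21 without the third VAA DSS library. The count was 1 with sex as a term and 0 without both male libraries.

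Fibroblast genes fell in 7 of 25 cases and rose in 1. With 1 library left out, 1 rose only without the second or the third VAA DSS library. With DESeq2 and with only the KO groups in the fit 1 rose. With limma, with sex as a term and without both male libraries 0 rose. *Dpt*, a collagen-binding matrix protein, went from 44.6 and 62.8 to 18.7, 16.5 and 20.9 CPM, *Col14a1*, a fibril-associated collagen, from 35.5 and 56.6 to 14.3, 10.7 and 10.8 CPM, and *Postn*, periostin, from 292 and 422 to 160, 146 and 197 CPM. Their log2 fold changes were -1.52 ± 0.2, -1.95 ± 0.28 and -1.09 ± 0.17. The inhibitor of metalloproteases *Timp3* fell from 107 and 109 to 45.7, 44.1 and 51.9 CPM. The fibrillar collagens *Col1a1* and *Col3a1* did not pass, with log2 fold changes of -0.48 ± 0.47 and -0.68 ± 0.32. The number of fibroblast genes that fell was 4 without the first untreated library or the first or the third DSS library, 3 without the second untreated or second DSS library, and 11 without the third VAA DSS library. It was 3 with sex as a term and 3 without both male libraries.

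Of 29 genes of cholesterol and fatty acid synthesis 16 rose and 0 fell, with a median log2 fold change of 1.2. *Srebf1*, the transcription factor of lipid synthesis, went from 72.4 and 77 to 132, 162 and 149 CPM (log2 fold change 0.99 ± 0.13). The mevalonate pathway enzymes *Mvk*, *Mvd* and *Fdps* rose, *Fdps* going from 51.7 and 57.6 to 150, 185 and 184 CPM and *Mvd* from 18.2 and 22 to 51.8, 62.1 and 61.4 CPM. *Hmgcs1*, the first committed enzyme of the pathway, had 236 and 338 against 719, 721 and 634 CPM and did not pass (edgeR adjusted *P* = 0.05). *Mvk*, *Mvd* and *Fdps* lost their calls without the first untreated library, and the count of 16 was then 1. It was 5 without the second untreated library, 7 and 10 without the second and the third DSS library, and 2 without both male libraries. Adipocyte transcripts, which could bring lipid genes with them, summed to 327 and 328 CPM untreated and 235, 621 and 219 CPM after DSS, high in the second DSS library alone. The part of fat tissue in the lipid genes was not tested. In the test against the mean of the other genotypes *Srebf1* differed by 1.18 ± 0.16 on the log2 scale (edgeR adjusted *P* = 0.029), with responses of -0.29 in WT and -0.11 in VAA. This difference lost its call without any 1 KO library, either untreated WT library, the second untreated VAA library or the first WT DSS library.

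Of 27 glycolysis and hypoxia genes 8 rose, among them *Pgk1*, phosphoglycerate kinase, from 196 and 272 to 541, 507 and 509 CPM (log2 fold change 1.15 ± 0.18). *Hk2*, a hexokinase, did not pass, at 372 and 311 against 301, 267 and 416 CPM. The 8 became 1 without the first untreated library, 13 without the third VAA DSS library and 5 without both male libraries. Of 21 NRF2 targets and other antioxidant genes 7 rose. *Srxn1*, sulfiredoxin, went from 60.6 and 58.7 to 109, 98.3 and 103 CPM, and *Gpx2*, the glutathione peroxidase of gut epithelium, from 98.7 and 140 to 356, 473 and 439 CPM. *Gpx2* lost its call without the first untreated library. The 7 became 1 without that library, 3 without the second, 3, 2 and 3 without each DSS library, 4 with sex as a term and 3 without both male libraries.

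Other lists had few calls or none in the KO response, in which 5.59% of all genes tested rose and 5.06% fell. Of 38 cell cycle genes 0 passed, with a median log2 fold change of 0.68. *Mki67*, a marker of cycling cells, stood at 300 and 354 against 490, 673 and 457 CPM and *Ccna2*, cyclin A2, at 44 and 53.9 against 89.9, 138 and 90.2 CPM (edgeR adjusted *P* = 0.32 and 0.13). Of the 38 genes 29 had every DSS library above both untreated ones, against 24.1% of all genes tested. Without the third VAA DSS library 21 passed. Of 19 genes of telomerase and telomere maintenance 0 passed, with a median of 0.15, and 3 rose without the third VAA DSS library. Of 26 p53 targets 1 rose and 1 fell, near the 5.59% and 5.06% of all genes tested. Without the third VAA DSS library 5 rose and 3 fell. The number of p53 targets that rose was 0 without any 1 KO library, and the number that fell was 0 without either untreated library or the second DSS library. With sex as a term 1 rose and 0 fell, and without both male libraries 0 rose and 0 fell. *Cdkn1a*, encoding the cell cycle inhibitor p21, did not pass, at 126 and 142 against 210, 204 and 230 CPM (edgeR adjusted *P* = 0.077). Of 20 enteric neuron genes 0 passed, with a median of -1.3, and without the second and the third VAA DSS library 3 and 12 fell, and 1 with sex as a term.

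Of 23 neutrophil genes 10 rose and 0 fell in KO colon. *S100a9*, a subunit of calprotectin, the neutrophil protein used as a stool marker of colitis, went from 0.259 and 0.143 to 4.42, 7.16 and 4.38 CPM (log2 fold change 4.66 ± 0.53). After DSS it stood at 73.3, 92.1 and 58 CPM in WT and 126, 69.2 and 82.1 CPM in VAA colon. All 3 KO libraries lay below all 6 of these, and the difference of the responses was -5.14 ± 1.18 with an edgeR adjusted *P* of 0.084, so it did not pass. *Csf3r*, the receptor for the growth factor of neutrophils, rose from 2.2 and 1.43 to 6.74, 7.71 and 8.62 CPM. Its difference from the mean of WT and VAA was -1.85 ± 0.35 (edgeR adjusted *P* = 0.048). In that test 4 of the 23 neutrophil genes were called lower and 0 higher, against 0.149% and 0.12% of all genes tested. Without any 1 KO DSS library 0 genes passed that test. *Cxcr2*, the receptor that draws neutrophils in, did not pass, at 28.4 and 17.1 against 29.5, 21.6 and 22 CPM, and neither did *Ly6g*, at 46.6 and 98.9 against 108, 68 and 78.4 CPM. The median log2 fold change of the list was 2.07 in KO (1.92 with the floor), 5.69 in WT and 6.37 in VAA. The KO count was 4 and 6 without the first and second untreated library, 6 without the first or second DSS library, 6 with sex as a term and 6 without both male libraries. Of 44 cytokine and chemokine genes 9 rose and 1 fell. *Il1b*, interleukin-1 beta, went from 0.582 and 0.713 to 10.6, 12.5 and 13.6 CPM, and *Cxcl2*, a neutrophil attractant, from 2 counts to 116 over the group (ratio 41.7, interval 11.3 to 348). *Cxcl12* did not pass, at 28.2 and 30.3 against 20.7, 19.9 and 27.7 CPM. The 1 cytokine gene that fell, *Ccl11*, encoding eotaxin, lost its call without any 1 KO library, any 1 untreated WT or VAA library or the first or second WT DSS library, and 2 fell without the third VAA DSS library. The number that rose was 2 and 4 without the first and second untreated library, 5 without the second DSS library and 3 without both male libraries. The number that fell was 0 with sex as a term and 0 without both male libraries.

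Monocyte and macrophage genes moved both ways, 7 of 30 higher and 4 lower. *Ccr2*, the receptor of incoming monocytes, rose from 5.3 and 8.77 to 28.9, 29.4 and 28.5 CPM, and *Lyve1*, found on resident macrophages and lymphatic vessels, fell from 18.4 and 25.9 to 6.51, 5.59 and 5.94 CPM. *Csf1r*, the receptor for the macrophage growth factor, did not pass, at 25.1 and 36.1 against 27, 25.8 and 46.1 CPM. *Ccr2* lost its call without the first untreated library and *Lyve1* without the second. The number that rose was 1 and 4 without the first and second untreated library, 4 without the third DSS library and 4 without any 1 untreated WT or VAA library. The number that fell was 2 and 0 without the first and second untreated library and 1 without any 1 DSS library. Monocyte and macrophage genes that rose and fell numbered 4 and 1 with sex as a term and 4 and 0 without both male libraries. Complement and acute phase genes rose in 6 of 22 cases, *C2*, a protease of the classical pathway, from 10 and 9.06 to 36.1, 24.6 and 22.1 CPM. Of this list 2 rose without either untreated library or without both male libraries. Genes of the inflammasome and of cell death rose in 9 of 26 cases, *Ripk3*, the kinase of necroptosis, from 10.1 and 13.9 to 48.1, 49.5 and 44.1 CPM, and 3 rose without the first untreated library.

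The response of KO colon was tested against those of the other genotypes by interaction. Against WT alone 0 genes passed with edgeR, 1735 had an unadjusted *P* under 0.05, and DESeq2 and limma called 138 and 9. Against VAA 12 passed, 0.0687% of the genes tested, and against the mean of WT and VAA 47 passed, 0.269%, with 21 higher and 26 lower, 0.12% and 0.149%. In WT 4642 genes and in VAA 3571 genes changed with DSS, 26.6% and 20.4%, against 10.7% in KO. These numbers of calls are not a test between genotypes, and whether the KO response was smaller as a whole was not tested. Of the 1862 KO genes 1377 changed in the same direction in WT, 74% of the KO genes and 29.7% of the WT genes, and 1157 in VAA, 62.1% and 32.4%. The groups of each genotype share no libraries, but the fit shares 1 estimate of spread.

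The 8 named genes whose responses lay furthest below those of the other genotypes did not pass the test in KO itself. *Lcn2*, encoding lipocalin-2, which starves bacteria of iron, went from 0.905 and 0.927 to 2.25, 2.32 and 1.56 CPM in KO. In WT it went from 0.752 and 0.471 to 37.1, 70.6 and 42.7 CPM and in VAA from 1 and 0.511 to 91.1, 37.1 and 122 CPM. The difference was -5.39 ± 0.83 on the log2 scale (edgeR adjusted *P* = 0.03). *Saa3*, an acute phase protein, had 5.17 and 2.5 and then 7.75, 8.46 and 8.69 CPM in KO, against 82.2, 140 and 96.5 CPM in DSS WT and 146, 64.6 and 167 CPM in DSS VAA libraries. *Mmp9*, a gelatinase carried by neutrophils, had 1.36 and 1.14 and then 1.47, 2.25 and 1.63 CPM in KO, against 16.3, 18.4 and 11.9 and 32.2, 14.5 and 18.8 CPM after DSS in WT and VAA. For all 3 genes the KO DSS libraries lay below every DSS library of the other genotypes. *Ereg*, an epidermal growth factor receptor ligand of epithelial repair, had 14 and 10.8 and then 10.7, 8.52 and 10.5 CPM in KO, and 76.7, 67.2 and 43.3 CPM in DSS WT libraries. The differences of *Saa3*, *Mmp9* and *Ereg* from the mean of WT and VAA were -3.73 ± 0.5, -3.96 ± 0.6 and -2.9 ± 0.39. *Clec4e*, *Adam8*, *Ifitm1* and *Grem1* completed the 8 lowest among called genes that averaged at least 2 log2 CPM over all 15 libraries, with differences of -3.08, -2.37, -2.3 and -2.19.

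Among the 8 highest under the same limit *Selenbp1*, a methanethiol oxidase of mature colonocytes, kept more of its level in KO. It had 703 and 696 CPM untreated and 509, 307 and 487 CPM after DSS in KO. In WT it had 742 and 757 and then 103, 128 and 211 CPM. In VAA it had 805 and 693 and then 84, 100 and 131 CPM. Against WT alone the difference of 1.66 ± 0.4 did not pass (edgeR adjusted *P* = 0.24). Against the mean of WT and VAA it was 1.9 ± 0.35. *Mettl7a3* differed by 2.4 ± 0.35. It fell in KO by a log2 fold change of -1.17 ± 0.27 and lost that call without either untreated library or without the first or the third DSS library. The genes *Grb7*, *Rapgefl1*, *Hmcn1*, *Map3k13*, *Add3* and *Sh3d21* differed by 1.7, 1.69, 1.58, 1.49, 1.35 and 1.28. *Fabp6*, an ileal bile acid carrier, rose in KO from 0.905 and 2.21 to 30.8, 8.87 and 20.1 CPM, with responses of 0.47 in WT and -0.2 in VAA. It averaged below that limit, and its difference was 3.55 ± 0.64. The calls rest on few libraries. In this test 0 genes passed without any 1 of the 3 KO DSS libraries, without the first untreated WT, the second untreated VAA or the first WT DSS library. The number of genes called was 1 and 2 without the first and second untreated KO library, 1 without the second untreated WT library, 6 without the first untreated VAA library, 7 without the second WT DSS library and 13 without the first VAA DSS library. It was 133, 377 and 323 without the third WT DSS, the second VAA DSS and the third VAA DSS library. Without both male libraries 0 passed.

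**Figure D5:**
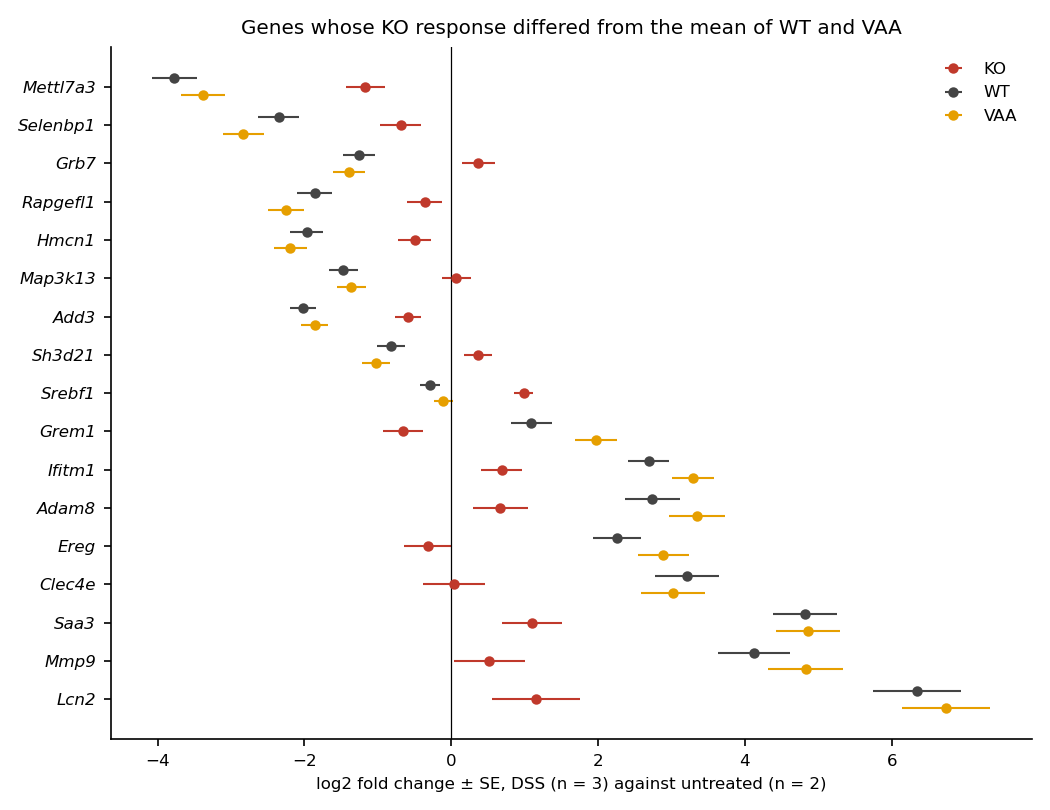
Points are the log2 fold changes of DSS against untreated in KO, WT and VAA colon for the 8 highest and 8 lowest differences of KO from the mean of the other 2 among called genes that averaged at least 2 log2 CPM over all 15 libraries, each from 3 DSS and 2 untreated libraries with standard errors as bars, and for Srebf1. Lcn2, at 1.15 in KO against 6.34 and 6.74, lies farthest apart among the genes shown.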

How the data were processed

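The authors deposited estimated counts per gene, made with kallisto 0.46 and build mm10 per the submitters' processing notes, and log2 CPM values, per the file headers. The counts were already whole. Here edgeR 4.0.16 (R 4.3.3) fitted 1 mean per group to all 15 libraries, with trimmed mean scaling, after its expression filter had kept 17477 of 32544 genes, by a quasi-likelihood test with Benjamini-Hochberg adjustment. SE is the log2 fold change divided by the root of F. Named genes were the 12 largest folds each way (mean log2 CPM of at least 2, groups not overlapping), the 10 smallest *P* each way, the 8 largest differences between genotypes each way (called, same limit over all 15 libraries), and up to 4 per list passing each way and 4 not passing. Some genes the rule names are not reported here. Genes and lists were chosen with earlier results of these data known. Alternatives were DESeq2 1.42.0, limma 3.58.1 on the deposited log2 CPM, other scaling and filters, a replicate block, sex, and leaving out each library. Intervals are exact and cover counting error only. The model was tested on simulated data.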

Additional observations from a re-analysis of the deposited data

Results flagged for a closer look

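Each gene here was picked out because its response to DSS in KO differed, by the interaction test in edgeR, from the mean of the WT and VAA responses. Differences are KO minus that mean on the log2 scale, with adjusted *P* values between 0.029 and 0.048. The KO response was lower for *Lcn2* (-5.39), *Mmp9* (-3.96), *Saa3* (-3.73), *Clec4e* (-3.08), *Ereg* (-2.9), *Adam8* (-2.37), *Ifitm1* (-2.3), *Grem1* (-2.19), *Csf3r* (-1.85) and *Cwh43* (-1.55). The KO response was higher for *Fabp6* (3.55), *Mettl7a3* (2.4), *Selenbp1* (1.9), *Grb7* (1.7), *Rapgefl1* (1.69), *Hmcn1* (1.58), *Map3k13* (1.49), *Add3* (1.35), *Sh3d21* (1.28) and *Srebf1* (1.18). Without any 1 KO DSS library 0 genes passed this test.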

How the results depend on the processing

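The KO response of 1862 genes moved to 2986 with only the groups compared in the fit and to 1187 with sex as a term, and to 538 without both male libraries. Leaving out 1 library gave 403 to 3750. Other scaling, no filter, DESeq2 and limma gave 1792, 1827, 2513 and 2247. With the replicate number as a block 2541 genes were called. Over 33 same-numbered pairs the correlation of deviations ran from -0.2 to 0.36, and 8 pairs were over 0.1. The KO pairs had -0.12 and -0.15, and 8 of 15 libraries correlated best with their own number. In a group of 2 libraries the deviations mirror each other, so these values cannot decide whether the numbers pair the libraries. *Ddx3y* ran from -6.05 to 0.66 with 1 library left out and changed sign, to 0.16 with sex as a term, to 0.66 without the second untreated KO library and to 0.66 without both male libraries.

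Against WT the count of 0 became 5 without a filter, 138 with DESeq2, 9 with limma and 31 with only the groups compared, and 0 to 18 with 1 library left out. The replicate block gave 0. Against VAA the count of 12 became 107 without a filter, 539 with DESeq2 and 115 with limma. It was 0 with only the groups compared, 0 with the replicate block, 0 with sex as a term and 0 without both male libraries, and 0 to 837 with 1 library left out. Against the mean of both the count of 47 became 21 with DESeq2 size factors, 122 without a filter, 510 with DESeq2 and 144 with limma. It was 15 with the replicate block, 14 with sex as a term, 0 without both male libraries, and 0 to 377 with 1 library left out. The cause of these shifts was not tested. With 2 untreated KO libraries, 1 of each sex, no sex effect within the KO response can be told apart from the spread between those 2.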
